A study of Rattus norvegicus with 3 samples.

Results

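Wnt signalling was described in cultured rat granulosa cells through 10 genes: the ligand genes Wnt4, Wnt5a and Wnt5b, the receptor genes Fzd1 and Fzd4, the genes of the secreted modulators Sfrp2, Sfrp4 and Dkk3, and Axin2 and Lef1, a target gene and a nuclear effector of the pathway. All 17 probe sets that the platform annotation gives to 1 of these symbols alone were taken, of 31099 probe sets and 14218 named genes on the array. The genes were chosen by symbol with earlier readings of the same signals known, the low stimulated signal of Wnt5b among them, so every difference of a member below is a description and supports nothing beyond itself. The granulosa cells came from immature female Sprague-Dawley rats aged 24 to 25 days, 48 h after pregnant mare's serum gonadotropin, a hormone preparation that drives follicles to the preovulatory stage. There were 3 groups. In the first, cells carried an adenovirus for green fluorescent protein (Ad-GFP) and received no stimulus; in the second, Ad-GFP cells received forskolin at 10 uM for 6 h together with phorbol 12-myristate 13-acetate at 20 nM (the pair is written FSK/PMA); in the third, cells carried an adenovirus for NFIL3 (Ad-NFIL3) and received the same FSK/PMA. All 3 groups were infected at 50 pfu per cell, with the virus medium replaced after 2 h and FSK/PMA added at 24 h. Forskolin activates adenylyl cyclase and the phorbol ester activates protein kinase C, which together stand in for the ovulatory gonadotropin signal, and NFIL3 is a DNA-binding protein of the basic leucine zipper class that mostly represses transcription. Each group was 1 array, hybridised with RNA pooled from 3 experiments on primary cells that had themselves been pooled over follicles, so differences between animals or cultures cannot be read. Ad-NFIL3 cells without FSK/PMA were not analysed here, so the NFIL3 comparison holds only for stimulated cells.

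Wnt proteins are secreted, lipid-modified glycoproteins that bind Frizzled receptors. In the beta-catenin branch, Frizzled and an LRP co-receptor halt the destruction complex built on Axin, and beta-catenin then joins TCF/LEF factors on target genes such as Axin2, which feeds back on the pathway. In the other branches, for which Wnt5a is a typical ligand, Frizzled signals through planar polarity proteins, small GTPases or calcium. Wnt4 is required for development of the female gonad. Wnt4, Fzd1, Fzd4 and Sfrp4 are known to be expressed in the follicle or corpus luteum of rodents, and loss of Fzd4 impairs luteal function in mice.

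The median signal was 127 on the Ad-GFP array, 115 with FSK/PMA and 136 with Ad-NFIL3 and FSK/PMA, in MAS5 units of hybridisation brightness scaled to a common trimmed mean. Signals under a floor of 126, the median of all signals, were set to that floor. Nfil3, read as the check of the labels, had signals of 564, 1321 and 5882 on the 3 arrays in that order, highest where the label says NFIL3 virus; the sources used here do not tell if its 1 probe set reads the sequence in the virus. Of 11 granulosa markers on the array, 10 were above the floor on the Ad-GFP array and 11 on each of the others; Inha, the inhibin alpha subunit gene, had signals of 26489, 29911 and 18604, and Foxl2, a defining granulosa transcription factor gene, of 4616, 1361 and 1101. The summed signal of the 11 granulosa markers was 113258, 83301 and 51835 in the same order; 5 of the 11 were at least 2-fold lower and 1 higher with FSK/PMA, and 3 were at least 2-fold lower and 0 higher with NFIL3. Their part in the differences below was not tested. Markers of other cells were also read. The summed signal of 12 theca and stroma markers was 1414, 1191 and 1628 on the 3 arrays in the same order. That of 12 leukocyte markers was 2677, 3369 and 3803, with 5, 4 and 8 of them above the floor. The sum of 7 endothelial markers was 474, 522 and 651, and that of 7 surface epithelium markers 1018, 816 and 884. The theca enzyme gene Cyp17a1, the leukocyte gene Ptprc and the endothelial gene Pecam1 were below the floor on every array. Of 5 oocyte markers only Zp2 was above it, and of 3 red cell markers Hbb and Alas2 were, with a summed signal of 20012, 18446 and 15760 that was nearly all Hbb, a haemoglobin gene. The brightest leukocyte markers were Lyz2, with signals of 1110, 769 and 970, and Cd14, with 606, 1488 and 1562, which was 2.46-fold higher with FSK/PMA. The part of such cells in the differences below was not tested. With 1 array a group no difference could be tested, and precision is limited by the number of arrays. The one measure of error is the disagreement between 2 probe sets of the same gene, which gave a robust SD of 0.36 on the log2 scale for a difference with FSK/PMA (1895 genes) and 0.24 for a difference with NFIL3 (1846 genes). This spread leaves out differences between cultures.

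Of the 10 members, 5 were above the floor on all 3 arrays (Wnt4, Wnt5a, Fzd1, Sfrp4 and Dkk3), Wnt5b was above it on 1 array and Fzd4 on 2. The other 3, Sfrp2, Axin2 and Lef1, were below it on every array, a share of 30.0% beside 31.2% of all 14218 genes. The 2 comparisons below share the Ad-GFP array with FSK/PMA, so they are not independent of each other.

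**Figure D1:**
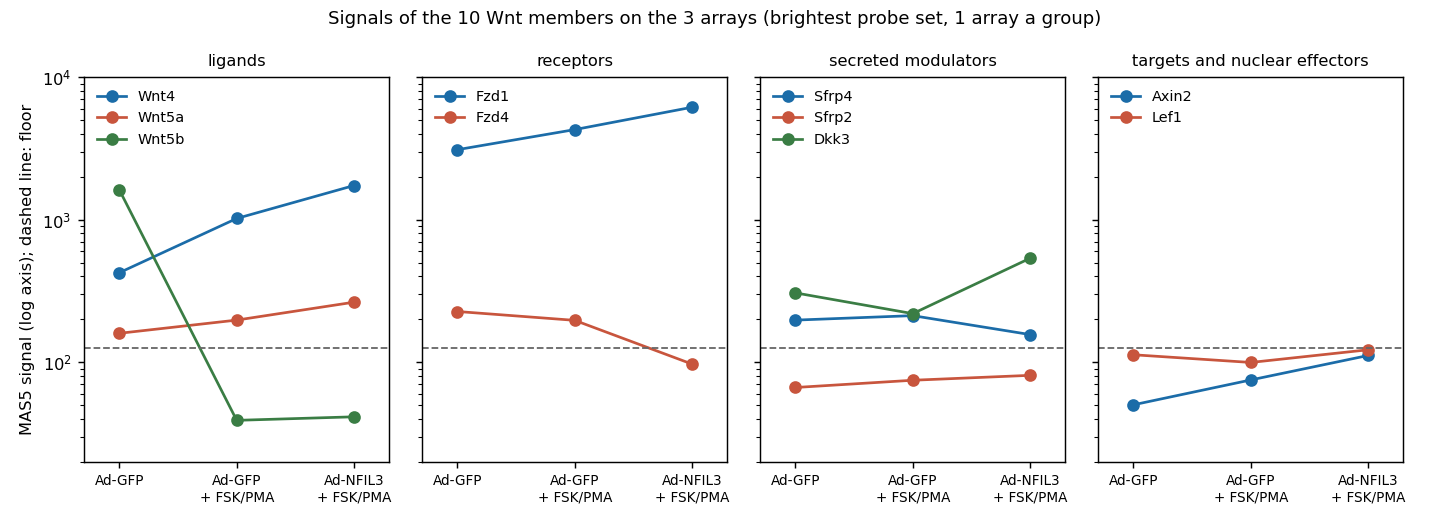
MAS5 signal (log axis) of the brightest probe set of each of the 10 members on the 3 arrays, 1 array a group, by role; lines join the points of a gene and the dashed line is the floor of 126. Wnt4, Wnt5a and Fzd1 are higher on each array than on the one before. Wnt5b is at 1614 without stimulus and at 39.0 and 41.3 with it. Sfrp2, Axin2 and Lef1 lie under the floor throughout. Sfrp2 and Axin2 also rise from array to array there, which is not read as a difference.

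The first comparison sets stimulated against unstimulated Ad-GFP cells and so reads the Wnt genes against the stand-in for the ovulatory signal. The 3 ligand genes did not share a direction. Wnt4 was 2.40-fold higher, Wnt5b was at least 12.8-fold lower and Wnt5a differed by less than the spread between probe sets. Of 7 members measured, 1 was at least 2-fold higher and 1 at least 2-fold lower; of all 9395 genes with a measurement, 7.43% passed 2-fold upwards and 11.4% downwards. Nothing is read from the members' share, since the members were chosen with these values known. In this pooled material, fewer cells that express a gene and less RNA per cell cannot be told apart.

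Wnt4, the beta-catenin branch ligand of the early ovary, had signals of 424 on the Ad-GFP array, 1019 with FSK/PMA and 1736 with Ad-NFIL3 and FSK/PMA. It was thus lowest without stimulus and highest on the NFIL3 array. The log2 difference with FSK/PMA was 1.26, which 4.36% of the 8296 genes above the floor on both arrays reached or passed. Only a floor at the 75th percentile of all signals, which lies above the Ad-GFP signal of Wnt4, took this difference below 2-fold, to 0.90.

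Wnt5b, a ligand of the planar polarity and calcium type, had signals of 1614, 39.0 and 41.3. Both stimulated arrays were far under the floor and the unstimulated array was well over it. The fold of 12.8 is therefore a lower bound that depends on the floor. The log2 difference was -5.13 with a floor at the 25th percentile of all signals and -1.56 with a floor at the 75th, below -1 in each case. Since both stimulated arrays were under the floor, a difference of Wnt5b with NFIL3 could not be measured.

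Wnt5a, the close relative of Wnt5b, had signals of 159, 197 and 263. All 3 lay just over the floor. Its log2 difference with FSK/PMA was 0.31, within the spread of 0.36 between probe sets. The paralogues Wnt5b and Wnt5a thus stood apart with FSK/PMA, at least 12.8-fold lower for the former and 1.24-fold higher for the latter.

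Of the receptors, Fzd1 had signals of 3097, 4284 and 6148. The order of the arrays was that of Wnt4, with smaller steps: the log2 difference with FSK/PMA was 0.47, which is 1.38-fold and a little over the probe set spread. Fzd4, a receptor for Wnt and Norrin ligands, had signals of 227, 196 and 96.9. Its log2 difference with FSK/PMA was -0.21, within the spread, and it was under the floor on the NFIL3 array alone.

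Of the secreted modulators, Sfrp4, a decoy that binds Wnt ligands through a Frizzled-like domain, had signals of 197, 212 and 156, with a log2 difference of 0.10 with FSK/PMA. Dkk3, a member of the Dickkopf family that differs from the others in not acting as a plain LRP antagonist, had signals of 306, 219 and 536. Its log2 difference with FSK/PMA was -0.48, over the general spread of 0.36 and little over the spread of 0.40 among genes with a mean signal under 503, to which Dkk3 belongs. Sfrp2, another decoy, had signals of 66.4, 74.6 and 80.8, all under the floor, and is given no fold.

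**Figure D2:**
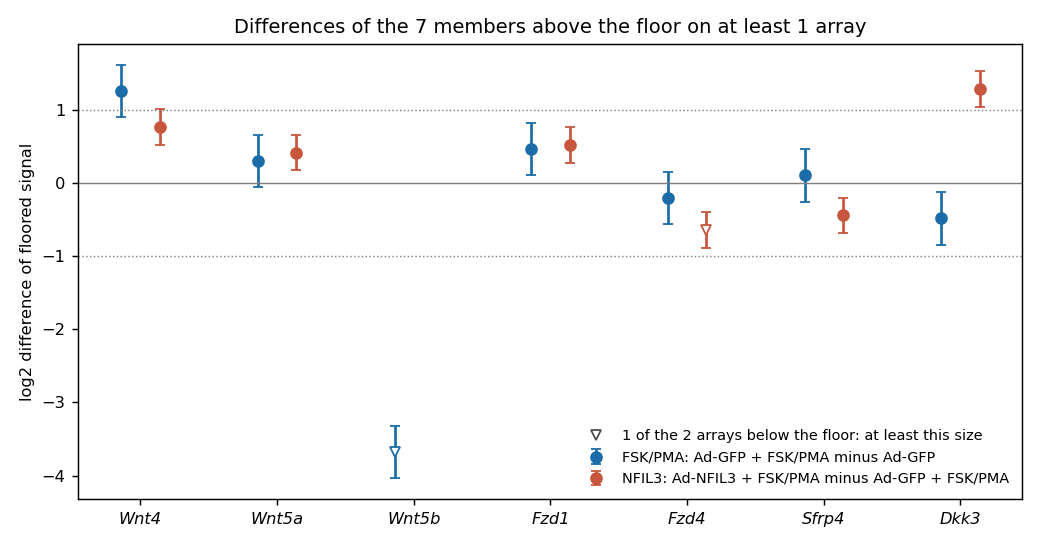
Log2 difference of the floored signal for the 7 members above the floor on at least 1 array, in the FSK/PMA comparison (blue) and the NFIL3 comparison (red). Bars are 1 robust SD of the disagreement between probe sets of one gene (0.36 and 0.24), not a spread between replicates; open triangles are lower bounds in size, and dotted lines mark 2-fold. Wnt5b stands at -3.68 and only Wnt4 and Dkk3 lie above 1, each in a different comparison.

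The second comparison sets the Ad-NFIL3 array against the Ad-GFP array among stimulated cells and reads the Wnt genes against NFIL3 overexpression. Dkk3 was 2.45-fold higher with NFIL3 and was the only member past 2-fold. Wnt4, Fzd1 and Wnt5a were 1.70-fold, 1.44-fold and 1.34-fold higher, while Fzd4 was at least 1.56-fold and Sfrp4 1.36-fold lower. Of 6 members measured, 1 passed 2-fold upwards and 0 downwards, beside 1.34% and 0.958% of all 9397 measured genes.

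Dkk3 went from 219 to 536, above its unstimulated signal of 306. The log2 difference of 1.29 was reached or passed by 0.308% of the 8432 genes above the floor on both arrays, at place 26 from the top. Among dim genes, those with a mean signal under 503, 1.97% were at least 2-fold higher and the probe set spread was 0.35. The value rests on 1 of 4 Dkk3 probe sets. The other 3 were under the floor on all arrays, so the mean over the 4 gave 0.32. Among the theca and stroma markers, Dcn, the gene of the matrix proteoglycan decorin, differed by as much, with signals of 201, 196 and 481 and a log2 difference of 1.29. The other 3 of the 4 markers of that list that were measured in this comparison lay between 0.05 and 0.25 in their brightest probe sets. A second probe set of the collagen gene Col1a2 went from 102 to 196, a difference of at least 0.64. That of Col1a1, another collagen gene, gave 0.00, also a bound. The summed signal of the list was 1191 with FSK/PMA and 1628 with NFIL3, with 3 and 4 of 12 markers above the floor. The part of such cells in the Dkk3 difference was not tested.

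Wnt4 differed by 0.77 with NFIL3 on the log2 scale, Fzd1 by 0.52 and Wnt5a by 0.42, each over the probe set spread of 0.24. The spread was 0.35 among the dim genes to which Wnt5a belongs. Of the 5 members above the floor on all arrays, these 3 were the ones higher in both comparisons, Wnt4 by the most. Higher here means any difference above 0, and that of Wnt5a with FSK/PMA, 0.31, was within the spread of 0.36. The share of all genes higher in both was not worked out, so nothing is read from this count. The signals of Axin2 and Sfrp2, under the floor throughout, also rose from array to array, which is not read as a shared trend. The median of all signals was 115 with FSK/PMA and 136 with NFIL3. With a floor at the 25th percentile, 545 of all genes were at least 2-fold higher with NFIL3 and 236 lower. At that floor Sfrp2 differed by only 0.17 with FSK/PMA and 0.11 with NFIL3. Scaling the arrays to the same median moved the median of all genes in this comparison from 0.03 to -0.20. It lowered the differences of Wnt4, Fzd1 and Wnt5a to 0.53, 0.28 and 0.18, the last within the spread.

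Fzd4 was under the floor with NFIL3, so its log2 difference of -0.64 is a bound. The difference was -1.02 with a floor at the 25th percentile of all signals, which is past 2-fold. At that lower floor the second Fzd4 probe set gave 0.47, the opposite direction. Its signals were 35.5, 9.74 and 64.1, over the lower floor on the NFIL3 array alone. Sfrp4 differed by -0.44, with 7.59% of genes at or below that value. The spread was 0.35 among the dim genes to which Sfrp4 belongs. At the lower floor the second Sfrp4 probe set gave 0.54, the opposite direction. In their brightest probe sets, Fzd1 and Fzd4, both receptors, thus lay on opposite sides of 0, and so did the modulators Dkk3 and Sfrp4. None of the alternatives that gave a value turned these 4 directions, but only a change of scaling between arrays could have done so. A change of floor or a pseudocount acts on the same probe set and cannot turn its direction. In the mean of all probe sets, the further ones lie under the floor and add no difference. Fzd1 ranged from 0.28 to 0.60, Fzd4 from -1.02 to -0.32, Dkk3 from 0.32 to 1.29 and Sfrp4 from -0.68 to -0.22.

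Set against unstimulated Ad-GFP cells, the Ad-NFIL3 array with FSK/PMA had Wnt4 4.09-fold higher, with a log2 difference of 2.03 that 1.27% of genes reached or passed. Fzd1 was 1.99-fold, Dkk3 1.75-fold and Wnt5a 1.65-fold higher. Wnt5b was at least 12.8-fold lower, Fzd4 at least 1.80-fold and Sfrp4 1.26-fold lower. Of 7 members measured, 1 was at least 2-fold higher and 1 at least 2-fold lower, beside 6.52% and 9.05% of all 9647 measured genes.

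The share of higher genes among all that passed 2-fold depended on the scaling. It was 39.4% with FSK/PMA (698 higher, 1072 lower) and 50.1% when arrays were scaled to the same median (856 higher, 852 lower). In the NFIL3 comparison it was 58.3% (126 higher, 90 lower), 20.2% with the same median (48 and 190), 44.8% with quantile normalisation (91 and 112) and 42.2% with cyclic loess (86 and 118).

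Promoter sequence is shown for Wnt4, Wnt5a and Fzd1, to let their upstream regions be compared. Among members above the floor on all arrays, they were the ones higher in both comparisons by any amount. This served only to choose them. RefSeq promoter entries of build GRCr8 matched 7 of the 10 members. The 250 bases before the annotated start are given 5' to 3', all on the plus strand, at chr5:154797200-154797449 for Wnt4, chr16:3703415-3703664 for Wnt5a and chr4:30264824-30265073 for Fzd1; capitals would mark a motif match.
Wnt4: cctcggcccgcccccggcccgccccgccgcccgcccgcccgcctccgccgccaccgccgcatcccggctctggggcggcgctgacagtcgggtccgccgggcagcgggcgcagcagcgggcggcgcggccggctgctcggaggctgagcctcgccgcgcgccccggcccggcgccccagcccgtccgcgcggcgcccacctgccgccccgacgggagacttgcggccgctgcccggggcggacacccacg
Wnt5a: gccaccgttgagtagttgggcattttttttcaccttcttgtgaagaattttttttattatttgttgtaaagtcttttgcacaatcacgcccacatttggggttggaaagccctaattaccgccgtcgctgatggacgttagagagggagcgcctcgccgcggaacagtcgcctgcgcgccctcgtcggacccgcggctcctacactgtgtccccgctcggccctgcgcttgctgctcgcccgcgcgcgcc
Fzd1: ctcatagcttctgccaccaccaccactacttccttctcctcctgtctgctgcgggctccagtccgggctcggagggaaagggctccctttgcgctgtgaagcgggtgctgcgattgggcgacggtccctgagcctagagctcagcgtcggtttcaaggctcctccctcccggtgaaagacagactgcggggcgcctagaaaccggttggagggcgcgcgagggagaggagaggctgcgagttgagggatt

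Both strands were searched for the NFIL3 and PAR bZIP site (TTACGTAA or TTATGTAA), the full cyclic AMP response element (TGACGTCA), the TCF/LEF site (CTTTGAT or CTTTGAA) and the AP-1 site (TGANTCA). The 3 sequences held none of them, which says only that these letters are not in these windows. Of 33469 promoter entries of the same length, 0.932% held the NFIL3 letters, 1.59% the cyclic AMP element, 7.58% the TCF/LEF letters and 6.34% the AP-1 letters. The sequences differ in composition. G and C made up 86.4% of the Wnt4 stretch, with 47 CpG pairs, 57.2% of that of Wnt5a, with 25, and 63.6% of that of Fzd1, with 18, beside a median of 51.2% and 5 over all entries. Fzd4 (71.6%, at chr1:152692257-152692506) and Sfrp2 (62.4%, at chr2:171387286-171387535) held no match either.

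Axin2, the beta-catenin target and scaffold of the destruction complex, held 2 TCF/LEF matches in its upstream 250 bases, at chr10:94398535-94398784 on the plus strand. It is shown because of the 7 members with a promoter entry it alone carries the letters of the pathway's own factor, in capitals here, starting 232 and 132 bases before the gene's start.
Axin2: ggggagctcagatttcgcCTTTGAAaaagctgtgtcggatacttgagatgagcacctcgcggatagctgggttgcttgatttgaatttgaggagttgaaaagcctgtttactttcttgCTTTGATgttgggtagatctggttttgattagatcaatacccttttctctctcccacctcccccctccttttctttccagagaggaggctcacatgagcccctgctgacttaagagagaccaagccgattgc

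Axin2 had signals of 50.2, 74.99 and 111, under the floor on all 3 arrays, so it is given no fold. With a floor at the 25th percentile of all signals, 46.2, its log2 difference was 0.58 with FSK/PMA and 0.57 with NFIL3. No spread was worked out for signals this dim. Among genes with a mean signal under 503, at the floor of 126, the spread was 0.40 and 0.35. At the lower floor 967 of all genes were at least 2-fold higher and 1454 lower with FSK/PMA. With NFIL3 the counts were 545 and 236. Lef1, a TCF/LEF factor whose upstream stretch (chr2:222340463-222340712) held 1 AP-1 match and no TCF/LEF match, had signals of 113, 99.5 and 122, also under the floor throughout.

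The 5 members with several probe sets had 7 beside the brightest, and none of the 7 was above the floor on any array. So no member had a second measured probe set against which its difference could be checked. The second Dkk3 probe set came nearest, with signals of 122, 26.1 and 30.4, which is highest without stimulus and does not share the high NFIL3 signal of the first.

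**Figure D3:**
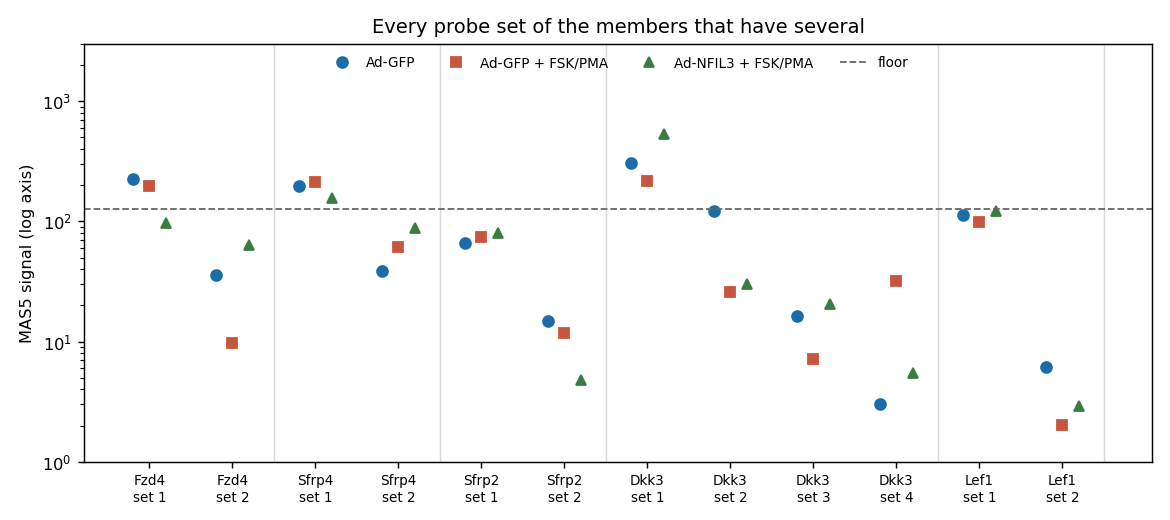
MAS5 signal (log axis) of every probe set of the 5 members that have several, numbered from the brightest; circles are Ad-GFP, squares Ad-GFP with FSK/PMA and triangles Ad-NFIL3 with FSK/PMA, and the dashed line is the floor of 126. Only the first probe set of Fzd4, Sfrp4 and Dkk3 lies above the floor on any array.

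The rest of the pathway was read from 7 lists by role, which held 110 further genes of the array. With FSK/PMA, 79 of these were measured; 9 passed 2-fold upwards and 13 downwards, and their median log2 difference was -0.01 beside -0.10 over all genes. These totals count each gene once; Tcf7, Znrf3, Nkd1 and Lgr5 stand in 2 of the lists and count under both below. The ligand list had 1 gene past 2-fold in 5 measured: Wnt6, which was 3.85-fold lower with signals of 856, 223 and 105. The next in size, Wnt2, was at least 1.34-fold higher. Of 9 other receptors and co-receptors, Fzd8 was 4.53-fold higher (424 to 1920) and Fzd6 2.34-fold higher (776 to 1815), beside 1.38-fold for the member Fzd1. Smo, the Hedgehog transducer of the Frizzled class, was 2.51-fold lower, and a second, dimmer probe set of it differed by -0.30. Fzd2 was 1.78-fold lower (235 to 132).

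Of 9 other secreted and surface modulators, 3 were higher and 3 lower. Cthrc1, a secreted glycoprotein that binds Wnt and Frizzled proteins, went from 41.5 to 895, at least 7.11-fold higher. Sostdc1, a secreted antagonist of Wnt and BMP signals, went from 3246 to 322, 10.1-fold lower. Apcdd1, a membrane inhibitor of Wnt signalling, was at least 3.94-fold lower, and Znrf3, the ubiquitin ligase that removes Frizzled receptors, had a signal of 577 without stimulus and 251 with it. The decoy gene Sfrp1, named after its values were seen, was at least 1.38-fold higher, and Sfrp5, Frzb, Dkk2, Sost and Kremen1, further inhibitor genes of the list, were below the floor on all 3 arrays. Wls, the carrier that Wnt proteins need for secretion, went from 2237 to 4990, 2.23-fold higher, and the glypican gene Gpc4, named after its values were seen, was 2.14-fold higher.

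The cytoplasmic machinery held no difference past 2-fold. Of 15 measured genes of the destruction complex and its partners, 0 were higher and 0 lower by that measure, with a median of 0.13. Btrc, a ubiquitin ligase subunit for beta-catenin, differed by 0.97, Gsk3b, its kinase, by 0.76, Axin1 by 0.61 and Csnk1a1 by 0.55. A second probe set of Btrc differed by 0.34. Ctnnb1, beta-catenin itself, was chosen after its values were seen, and had signals of 16674, 20985 and 25819. Its 3 probe sets above the floor differed by 0.33, 0.36 and 0.42.

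Of 15 TCF factors and nuclear cofactors, 2 were higher and 1 lower. Tcf7, a TCF factor that is also a target gene, went from 408 to 1029, 2.52-fold higher, and the corepressor gene Tle3 was 2.04-fold higher. Cbfa2t3 was at least 3.12-fold lower. The target list had 3 genes higher and 2 lower in 10. Fosl1, an AP-1 gene, was at least 2.99-fold higher, Myc was 2.73-fold higher and Bambi, a TGF-beta pseudoreceptor, was 5.98-fold lower (2599 to 435). Fosl1 and Myc answer to many other signals. The median of the list was 0.03.

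The planar polarity and calcium list, the branch that Wnt5b is placed in, had 6 of 19 measured genes lower by 2-fold or more with FSK/PMA and 0 higher. Its median was -0.50, beside -0.10 over all genes. Prickle2, a planar polarity scaffold gene, went from 1005 to 187, 5.38-fold lower, and its second probe set differed by -2.55. Camk2g, a calcium-dependent kinase gene, was 3.98-fold lower, Celsr2, a planar polarity cadherin gene, at least 2.48-fold lower and Ptk7, a Wnt co-receptor gene, 2.22-fold lower. The background shares of 7.43% and 11.4% given above stand beside all these counts. The lists, like the members, were chosen with earlier results of these data known. Nothing about a branch is therefore read from these counts and medians, and a link between this list and Wnt5b was not tested.

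**Figure D4:**
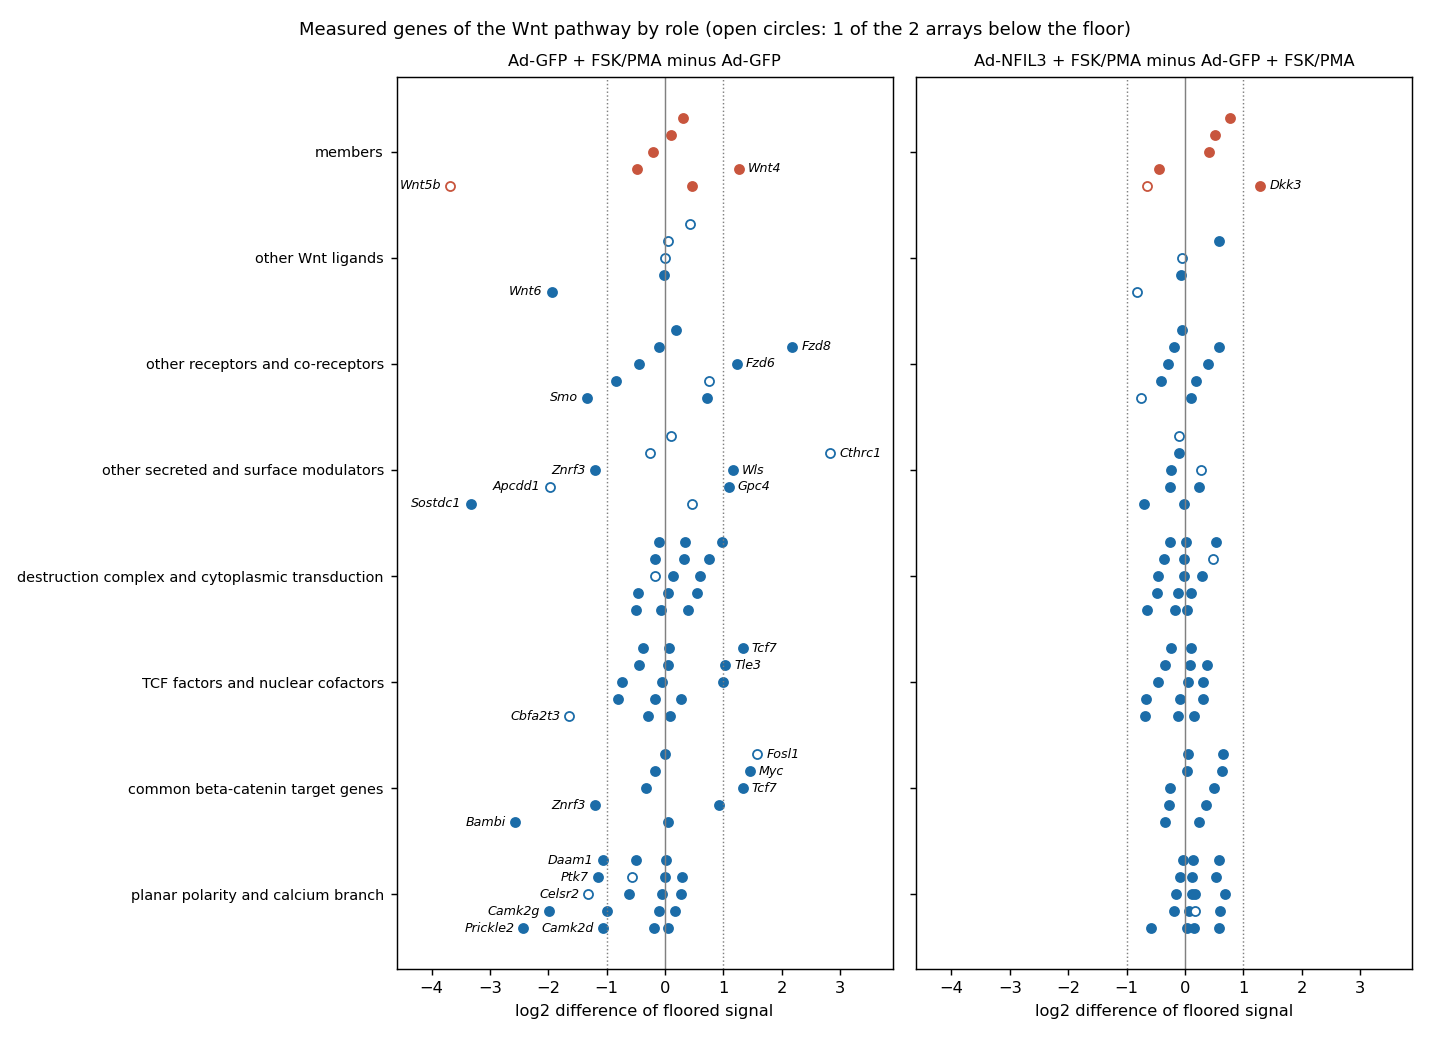
Log2 difference of the floored signal for each measured gene, by list, in the FSK/PMA comparison (left) and the NFIL3 comparison (right); members are red, open circles have 1 of the 2 arrays below the floor, dotted lines mark 2-fold, and height within a row only separates points. In the left panel 6 genes of the planar polarity and calcium list lie below -1, and in the right panel Dkk3 alone lies past a dotted line.

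With NFIL3, 75 of the further genes were measured. Of these 0 passed 2-fold in either direction, with a median of 0.04 beside 0.03 over all genes; the shares over all genes were 1.34% higher and 0.958% lower, so the count is near the background. The 4 ligands measured ranged from -0.82 to 0.58, the ends being Wnt6, at least 1.77-fold lower, and Wnt2b, 1.49-fold higher. Among receptors, Fzd3 was at least 1.68-fold lower and the co-receptor gene Lrp5 1.51-fold higher, with 0.42 for its second probe set. Wls, which had been higher with FSK/PMA, was 1.63-fold lower with NFIL3 (4990 to 3071). Among nuclear cofactors the corepressor genes Tle1 and Tle4 were 1.60-fold and 1.59-fold lower, and among targets Id2 was 1.57-fold and Bambi 1.56-fold higher. The destruction complex list ranged from -0.64, for Axin1, to 0.54, for Gsk3a. In the planar polarity and calcium list Daam1, a formin gene, was 1.61-fold higher (1904 to 3069) after a 2.10-fold lower signal with FSK/PMA, and its second probe set gave 0.64 and -1.16. The dimmest probe set of Daam1 gave -0.28 with NFIL3.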

How the data were processed

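Total RNA of cultured rat granulosa cells was measured on 3 Affymetrix arrays, 1 a group. Per the submitters' processing notes the deposited values are MAS5 output, a linear intensity for each probe set, with the MAS5 version not given in the sources used. Neither probe-level files nor detection calls were analysed here. The 3 columns were scaled to a common 2% trimmed mean. Signals under 126, the median over all arrays, were raised to that floor before log2. Each gene was represented by its brightest probe set, by mean over the arrays, and counted as measured when at least 1 of 2 arrays was above the floor; where only 1 was, its fold is a bound. Differences of 2-fold or more were counted, without a test. Of 31099 probe sets, 20832 had 1 gene symbol, 436 several and 9831 none; 20764 probe sets matched the RefSeq table of assembly GRCr8, which gave current symbols. The members and lists were chosen with earlier results of these data known. Named genes are the members and, of each list and comparison, up to 4 with the largest difference; exceptions are stated. The promoter table, of RefSeq GRCr8, was used only before the gene start. The comparison of member proteins that had been planned was not made. The code was tested on simulated data. Alternatives covered scaling between arrays (limma 3.58.1 for cyclic loess), the floor, a pseudocount of 32 and the choice of probe set.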

Additional observations from a re-analysis of the deposited data

How the results depend on the processing

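Over the 10 alternatives no member measured changed sign, though only those that changed the scaling between arrays could have changed one. The others kept the same probe set of a member or averaged it with probe sets under the floor. Of the member differences recomputed, 169 moved by less than the probe set spread and 19 by more. Many of the 169 could hardly move, so the tally does not measure robustness. The deposited arrays already had nearly equal trimmed means, and no member probe set name ends in _x_at or _s_at. A lower floor, or no floor, leaves a difference unchanged where both arrays are above the floor. Members at least 2-fold higher with FSK/PMA fell from 1 to 0 with a floor at the 75th percentile. With NFIL3 the 1 higher member, Dkk3, was lost (0) with that floor, which left it unmeasured, and with the mean of all probe sets; 1 lower member, Fzd4, appeared with a floor at the 25th percentile and with no floor. Against unstimulated cells, 2 members were higher with the 25th percentile floor, where Axin2 became measured, and 2 were lower with that floor, with no floor and with the pseudocount. Of all genes with FSK/PMA, 420 were higher and 402 lower with the 75th percentile floor. With NFIL3 the higher and lower counts were 48 and 190 with the same median, 545 and 236 with the 25th percentile floor, 36 and 48 with the 75th, and 347 and 157 with no floor; with the pseudocount 199 were higher. Among the further pathway genes, 6 were lower with FSK/PMA with the 75th percentile floor and 7 with the mean of probe sets. With NFIL3 the counts in each direction rose from 0 to 3 with the 25th percentile floor, 2 with no floor and 1 with the pseudocount. No paired analysis was possible because each group has 1 array. Signals under the floor leave only bounds for Wnt5b and, on the NFIL3 array, for Fzd4, and no difference for Sfrp2, Axin2 and Lef1.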

Other observations

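Some further Wnt pathway genes had probe sets that differed from each other. Id2, a helix-loop-helix inhibitor gene, differed by 0.06 with FSK/PMA in its brightest probe set, while its second had signals of 5107, 2558 and 4459; with NFIL3 the differences were 0.65 and 0.80. Tle4 differed by -0.67 with NFIL3 in its brightest probe set and by -1.20 in its second, which had signals of 226, 309 and 135. These second probe sets were looked at after the values of the first were seen. Among the dim probe sets of the members, the second of Sfrp4 had signals of 38.7, 61.1 and 88.7, opposite in direction with NFIL3 to its brightest one, and all under the floor.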
